A study of Mus musculus with 6 samples.

Results

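The genes described here are 10 RNA-binding regulators of alternative splicing with known parts in striated muscle, namely *Rbfox1* and *Rbfox2*, *Mbnl1*, *Mbnl2* and *Mbnl3*, *Celf1* and *Celf2*, *Ptbp1* and *Ptbp2*, and *Rbm24*. They were chosen by gene symbol among the 54525 gene rows of the deposited count tables, each symbol matched 1 row, and all 10 passed the filter on low counts that left 16290 genes for testing. Their RNA was compared between 3 libraries of C2C12 myoblasts in growth medium (day 0, D0) and 3 libraries of C2C12 cells after 5 days in differentiation medium with horse serum (D5), in which the cells fuse into multinucleated myotubes. All 6 libraries carried the genotype label WT and the treatment label None, so no gene was deleted, added or drugged in either group, and the groups differed in day and medium together. C2C12 is an established mouse myoblast line, so that the cultures are replicates of a single line. The labels name the cell type as myoblasts in all 6 libraries and give the day only in the sample title.

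Alternative splicing joins different exons of the same gene into different mRNAs. The muscle regulators do so by binding short motifs in the pre-mRNA beside an exon, RBFOX proteins at GCAUG, MBNL proteins at UGCU-like elements, CELF proteins at GU-rich elements and PTB proteins at pyrimidine-rich tracts, and the position of the bound protein relative to the exon decides whether the exon is used or skipped. MBNL and CELF proteins are known for opposite effects on many exons of developing muscle, and in myotonic dystrophy MBNL proteins are held on expanded repeats while CELF1 rises. PTBP1 is known as a repressor of muscle and neuronal exons in undifferentiated cells, and RBM24 as a factor that favours muscle exons in heart and skeletal muscle. Gene counts measure how much RNA of each regulator was present and say nothing about exon use, protein or activity.

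The D0 libraries held from 36555048 to 40895840 counts on genes and the D5 libraries from 25449759 to 25811300. The ERCC spike-ins, synthetic RNAs added to each sample, took from 0.720% to 2.09% of the counts. All 8 markers of differentiated muscle (*Myog*, *Mymk*, *Mymx*, *Myh3*, *Ckm*, *Acta1*, *Actn2* and *Tnnc2*) rose at D5 in edgeR's test, from a summed 26.7 to 34.2 CPM (counts per 1000000 counts on genes, scaled by edgeR's TMM factors) at D0 to between 10600 and 11500 at D5, and all 5 proliferation genes fell, from between 1670 and 1680 CPM to between 59.6 and 67.3. Of the commitment markers, *Pax7*, *Myf5* and *Myod1* fell and *Des* rose. Among markers of other cell types, those of adipocytes summed to at most 0.285 CPM, those of osteoblasts to at most 1.01, those of endothelium to between 2.46 and 2.97 at D0 and between 0.324 and 0.402 at D5, and those of immune cells to between 3.05 and 3.31 at D0 and between 1.85 and 2.60 at D5, with *Adipoq*, *Ptprc* and *Adgre1* at no more than 1 count in any library. The neuronal markers summed to between 38.3 and 42.3 CPM at D0 and between 32.2 and 35.0 at D5 with *Snap25* at no more than 1 count. Within that list *Gap43* fell from 25.1 to 0.536 CPM, *Map2* rose from 14.8 to 32.9 and *Syp* from 0.214 to 0.522. The smooth muscle markers summed to between 277 and 287 CPM at D0 and between 131 and 133 at D5, where *Cnn1* fell from 155 to 1.03 CPM, *Smtn* was not called (126 and 131 CPM) and *Myh11* had no more than 8 counts. The part of these other transcripts in the values below was not tested.

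Among the 10 regulators, *Rbm24* and *Rbfox1* had the largest rises and *Ptbp1* the largest fall, and the sequence before their annotated transcript starts is shown because these 3 genes carry the strongest changes of the set. Each is the 250 bases upstream of a RefSeq transcript start on GRCm38.p6, on the plus strand, 5′ to 3′, in lower case, with any CAGCTG in capitals. CAGCTG is a form of the E-box CANNTG, the motif bound by myogenic factors such as MYOD1 and myogenin. *Rbfox1* has an upstream and a downstream start in the table, and the second lies inside the span of the gene.
Rbm24 chr13:46418050-46418299: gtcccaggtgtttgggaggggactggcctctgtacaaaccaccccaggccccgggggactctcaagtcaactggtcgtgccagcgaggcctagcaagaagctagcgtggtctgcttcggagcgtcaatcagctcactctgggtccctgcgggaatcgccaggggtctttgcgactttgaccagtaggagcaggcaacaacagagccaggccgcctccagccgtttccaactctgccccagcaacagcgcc
Rbfox1 chr16:5884543-5884792: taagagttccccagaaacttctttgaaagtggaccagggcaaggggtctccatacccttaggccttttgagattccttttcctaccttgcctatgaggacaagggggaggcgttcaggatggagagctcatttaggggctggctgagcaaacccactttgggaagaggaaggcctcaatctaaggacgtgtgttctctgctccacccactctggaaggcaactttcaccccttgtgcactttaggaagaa
Rbfox1 chr16:7069585-7069834: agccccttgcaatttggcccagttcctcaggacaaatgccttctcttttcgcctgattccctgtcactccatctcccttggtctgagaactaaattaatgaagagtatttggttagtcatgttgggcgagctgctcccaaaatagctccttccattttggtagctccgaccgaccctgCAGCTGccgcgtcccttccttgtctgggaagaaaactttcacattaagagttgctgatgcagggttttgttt
Ptbp1 chr10:79854182-79854431: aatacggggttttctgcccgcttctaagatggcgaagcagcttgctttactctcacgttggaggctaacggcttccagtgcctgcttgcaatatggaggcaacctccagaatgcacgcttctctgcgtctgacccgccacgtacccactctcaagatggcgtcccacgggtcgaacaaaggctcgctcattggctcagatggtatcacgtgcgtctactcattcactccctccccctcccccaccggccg

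The window of *Rbm24* was 62.4% G and C, that of *Ptbp1* 57.6%, and those of *Rbfox1* 51.2% and 48.4%. CANNTG, read on both strands and including CAGCTG, occurred 2 times in the *Rbm24* window, 2 times in the *Ptbp1* window, 2 times in the downstream *Rbfox1* window and 0 times in the upstream one. It occurs in 66.2% of 32851 RefSeq promoter windows of the same length, so its presence did not set these genes apart. CAGCTG itself was found only in the downstream *Rbfox1* window among these 4, and 13.0% of all windows hold it. The MEF2 motif, the A and T rich element bound by MEF2 factors, was in none of the 4 windows, compared with 2.92% of all windows. The same table held windows for 9 of the 10 regulators. These are matches of letters and not measurements of binding.

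In the comparison of D5 with D0, 5 of the 10 regulators were higher (*Rbfox1*, *Rbfox2*, *Mbnl1*, *Celf2* and *Rbm24*), 4 were lower (*Mbnl2*, *Mbnl3*, *Ptbp1* and *Ptbp2*), and *Celf1* was not called, but the calls of *Rbfox2*, *Mbnl1* and *Celf2* were lost with spike-in scaling, where their log2 fold changes were -0.33, -0.41 and -0.011 (adjusted p = 0.64, 0.56 and 0.99 in edgeR's test). Without scaling *Rbfox2* and *Mbnl1* were called lower, at -0.44 and -0.52, and *Celf2* at -0.12 was not called (adjusted p = 0.086 in edgeR's test). Calls are those of edgeR's quasi-likelihood test with Benjamini-Hochberg adjustment over all 16290 genes at a threshold of 0.05. Of all genes tested, 82.9% were called, 42.2% as higher and 40.8% as lower, so that 9 called genes of 10 is near the background and the count includes *Rbfox1*, which passed the filter on low counts only through the D5 libraries. Of the 10, *Rbfox1* and *Rbm24* rose at least 2-fold, where 19.3% of all genes did, and *Ptbp1* fell at least 2-fold, where 16.0% did, which makes 3 of 10 past 2-fold against 35.3% of all genes. The 3 D5 values lay entirely above the 3 D0 values for 5 regulators and entirely below them for 4 (42.2% and 41.1% of all genes), and *Celf1* overlapped. The summed level of the 10 genes was between 1950 and 2020 CPM at D0 and between 1990 and 2040 CPM at D5.

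**Figure D1:**
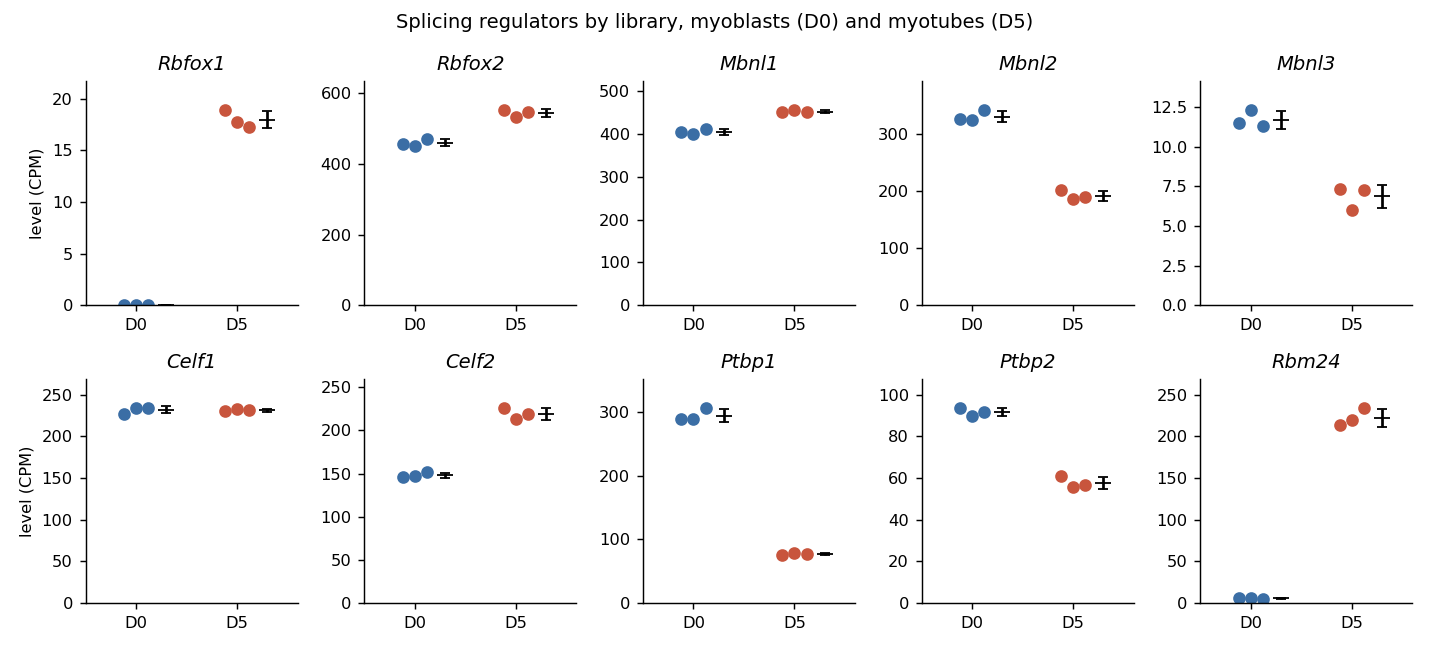
CPM of each of the 10 splicing regulators in the 3 D0 libraries (blue) and the 3 D5 libraries (red), each panel on its own linear axis from 0, with each library as a point and the mean ± SD in black beside it. *Rbm24* moved from a mean of 5.73 to 222 CPM and *Ptbp1* from 294 to 76.7, while the points of *Celf1* overlap. The *Rbfox2*, *Mbnl1* and *Celf2* points sit higher at D5 on this scale, a difference not called under spike-in scaling.

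*Rbm24*, an RNA recognition motif protein enriched in striated muscle, had the largest rise among the regulators that were detected in every library. The 3 myoblast libraries gave it 234, 241 and 210 counts and the 3 myotube libraries 5366, 5417 and 5824, although the latter were shallower. In CPM the D0 libraries were at 6.24, 5.73 and 5.21 and the D5 libraries at 213, 220 and 234. Every D5 library was thus far above every D0 library, and the spread within either group was small against the gap. The mean rose from 5.73 ± 0.515 to 222 ± 10.5 CPM (SD, n = 3), which is 5.28 on the log2 scale (SE 0.054, 95% interval 5.17 to 5.39, adjusted p = 1.5e-35 in edgeR's test), and 38.9-fold. Of the 16290 genes, 576 rose more. *Rbm24* (ENSMUSG00000038132.6) lies on the plus strand at chr13:46418434-46431095 of GRCm38, and none of its exonic sequence overlaps an exon of another gene on the opposite strand.

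*Rbm38*, the closest relative of *Rbm24*, encodes a p53-responsive RNA-binding protein and is not among the 10. Its D0 libraries were at 14.9, 14.5 and 15.0 CPM and its D5 libraries at 48.5, 53.7 and 48.1. It rose 3.38-fold (log2 fold change 1.76, adjusted p = 1.9e-23 in edgeR's test), with no overlap of the groups, and was not called with spike-in scaling (log2 fold change 1.22, adjusted p = 0.057 in edgeR's test). *Rbm20*, known for its control of titin splicing in the heart, went from 196 ± 2.94 CPM in myoblasts to 110 ± 1.53 CPM in myotubes (SD, n = 3), and so fell to 56.0% of its D0 level (log2 fold change -0.84, adjusted p = 2.9e-20 in edgeR's test).

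*Rbfox1*, the RBFOX gene of neurons, heart and skeletal muscle, was at or under the detection limit of 3 counts in every D0 library and clearly detected in every D5 library. It received 1, 0 and 1 counts in the D0 replicates and 476, 438 and 430 in the D5 replicates, which is 18.9, 17.8 and 17.3 CPM at D5. With 3 counts per D0 library taken as the limit, *Rbfox1* was at least 239-fold higher at D5, given as a description since the gene was tested only because of its D5 counts, and the fitted log2 fold change of 9.77 depends on the prior count added to the D0 libraries. *Rbfox1* (ENSMUSG00000008658.16) lies on the plus strand at chr16:5885355-7411526 of GRCm38, the longest span of the 10 genes.

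*Rbfox2*, the widely expressed RBFOX gene, was abundant on both days. Its libraries were at 457, 452 and 472 CPM at D0 and at 552, 532 and 547 CPM at D5, without overlap. The mean rose 1.18-fold with TMM scaling, from 460 ± 10.3 to 544 ± 10.5 CPM (SD, n = 3), or by 0.24 in log2 units (SE 0.032, adjusted p = 5.4e-08 in edgeR's test), and was at -0.33 with spike-in scaling, where it was not called. *Rbfox3*, the neuronal paralog also known as NeuN, had 0 counts in all 6 libraries. Within the family, *Rbfox1* made up 0.00684% of the summed TPM (transcripts per 1000000, which corrects counts for exonic length) at D0 and 5.77 ± 0.232% (SD, n = 3) at D5. *Rbfox2* (ENSMUSG00000033565.18) lies on the minus strand at chr15:77078990-77307004 and remained the main RBFOX transcript by TPM on both days.

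Of the muscleblind genes, *Mbnl1*, the main member in adult muscle, was slightly higher at D5 with TMM scaling and not called with spike-in scaling, where its log2 fold change was -0.41. It measured 404, 399 and 412 CPM in the D0 replicates and 452, 455 and 450 CPM in the D5 replicates. The groups did not overlap, with a log2 fold change of 0.16 (SE 0.031, 95% interval 0.09 to 0.22, adjusted p = 3.2e-05 in edgeR's test), or 1.12-fold. *Mbnl2*, a paralog prominent in brain, fell. Its levels were 325, 324 and 341 CPM at D0 and 201, 185 and 189 CPM at D5. That is 58.0% of the D0 level, a log2 fold change of -0.79 (SE 0.035, 95% interval -0.86 to -0.71, adjusted p = 6.3e-19 in edgeR's test). *Mbnl3*, the X-linked member known from muscle progenitors, was the weakest of the family in both groups.

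*Mbnl3* was at 11.5, 12.3 and 11.3 CPM at D0 and at 7.32, 6.0 and 7.27 CPM at D5, from 430 to 519 counts a library at D0 and from 148 to 184 at D5. It fell to 58.7% of its D0 level, a log2 fold change of -0.77 with the widest error of the regulators detected on both days (SE 0.085, 95% interval -0.94 to -0.59, adjusted p = 1.7e-09 in edgeR's test). The fitted falls of *Mbnl2* and *Mbnl3* were thus alike in size, each within the interval of the other. The MBNL genes lie at chr3:60472830-60629750 (*Mbnl1*, plus strand), chr14:120275669-120431697 (*Mbnl2*, plus strand) and chrX:51117269-51206532 (*Mbnl3*, minus strand) of GRCm38. The family's summed TPM was 175 ± 5.99 at D0 and 127 ± 4.77 at D5 (SD, n = 3). *Mbnl1* made up 42.8 ± 0.284% of it at D0 and 59.1 ± 1.16% at D5, *Mbnl2* 54.5 ± 0.386% and 39.0 ± 1.02%, and *Mbnl3* 2.65 ± 0.171% and 1.92 ± 0.190%. *Mbnl2* led at D0 and *Mbnl1* at D5 when exonic length was the union of all exons, 18717 bases for *Mbnl1* and 11993 for *Mbnl2*. With the length of the longest transcript, 5655 and 5561 bases, *Mbnl1* led on both days, with 53.7% at D0 and 69.0% at D5, so the order at D0 depends on the length used and the rise of its share does not.

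The CELF pair differed between its members. *Celf1*, known for its part in myotonic dystrophy, was at 227, 234 and 234 CPM at D0 and at 230, 233 and 232 CPM at D5, and the groups overlapped. Its log2 fold change with TMM scaling was -0.00 (SE 0.032, 95% interval -0.07 to 0.06, adjusted p = 0.954 in edgeR's test). The values with DESeq2 (0.005) and upper-quartile scaling (-0.018) lay inside this interval. Those with total-count (-0.087), spike-in (-0.57) and no scaling (-0.69) lay outside it. *Celf2*, the paralog of heart, brain and immune cells, was at 146, 147 and 152 CPM at D0 and at 226, 213 and 219 CPM at D5. The D5 libraries were all higher with TMM scaling, by a log2 fold change of 0.56 (SE 0.033, 95% interval 0.50 to 0.63, adjusted p = 8.0e-16 in edgeR's test) or 1.48-fold, whereas the value with spike-in scaling was -0.011 and not called. Both genes are on chromosome 2, *Celf1* at chr2:90940382-91019497 on the plus strand and *Celf2* at chr2:6539694-7509563 on the minus strand, where 7.58% of the exonic sequence of *Celf2* overlaps *Gm26565*, a gene with no more than 5 counts in any library. In the summed TPM of the pair, *Celf2* held 17.3 ± 0.213% at D0 and 23.6 ± 0.659% at D5 (SD, n = 3), and 36.2% and 45.7% with the longest transcript as the length.

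The other CELF genes, which are mostly neuronal, had low counts. *Celf3* had no more than 2 and *Celf6* no more than 5 counts in any library, and neither was tested. *Celf4* received 41, 51 and 42 counts at D0 and 8, 14 and 6 at D5 (log2 fold change -1.57, adjusted p = 1.7e-05 in edgeR's test). *Celf5* received 32, 34 and 32 counts at D0 and 44, 67 and 49 at D5 (log2 fold change 1.39, adjusted p = 4.6e-07 in edgeR's test), a call that was lost with spike-in scaling (0.88, adjusted p = 0.21). *Celf1* and *Celf2*, by comparison, had at least 5740 and 5248 counts in every library.

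*Ptbp1*, the polypyrimidine tract-binding protein of most dividing cells, fell the most of the 10. It received 10815, 12118 and 12324 counts at D0 and 1889, 1929 and 1910 at D5, or 288, 288 and 306 CPM and 75.1, 78.2 and 76.7 CPM. All 3 D5 libraries lay close together and far below the D0 libraries. The level at D5 was 26.1% of that at D0, a log2 fold change of -1.94 (SE 0.036, 95% interval -2.01 to -1.87, adjusted p = 7.0e-29 in edgeR's test), and 1058 of the 16290 genes fell more. *Ptbp1* (ENSMUSG00000006498.16) lies on the plus strand at chr10:79854427-79864771 of GRCm38, and 20.7% of its exonic sequence overlaps exons of genes on the opposite strand. The 2 partners with the most counts were *E130317F20Rik*, with from 290 to 294 counts at D0 and from 197 to 207 at D5, and *Plppr3*, with from 229 to 267 and from 45 to 61, compared with at least 10815 and 1889 counts for *Ptbp1*. Any reads left uncounted in the overlap would not show in these counts.

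*Ptbp2*, the paralog that takes the place of *Ptbp1* in developing neurons, also fell, but less. It was at 93.6, 89.8 and 91.7 CPM at D0 and at 61.0, 55.5 and 56.5 CPM at D5. The D5 level was 62.9% of the D0 level, a log2 fold change of -0.67 (SE 0.040, 95% interval -0.75 to -0.59, adjusted p = 1.1e-15 in edgeR's test). The gene lies on the minus strand at chr3:119718742-119784466 of GRCm38. *Ptbp3*, a paralog first known from blood cells and not among the 10, went from 276 ± 1.34 CPM in myoblasts to 108 ± 2.67 CPM in myotubes (SD, n = 3), or to 39.2% of its D0 level (log2 fold change -1.35, adjusted p = 1.2e-25 in edgeR's test). All 3 PTB genes therefore fell, *Ptbp1* most and *Ptbp2* least. *Ptbp2* did not rise, and yet it took a larger share of the TPM of the *Ptbp1* and *Ptbp2* pair, 13.9 ± 0.474% at D0 and 28.0 ± 1.41% at D5 (19.6% and 37.0% with the longest transcript).

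**Figure D2:**
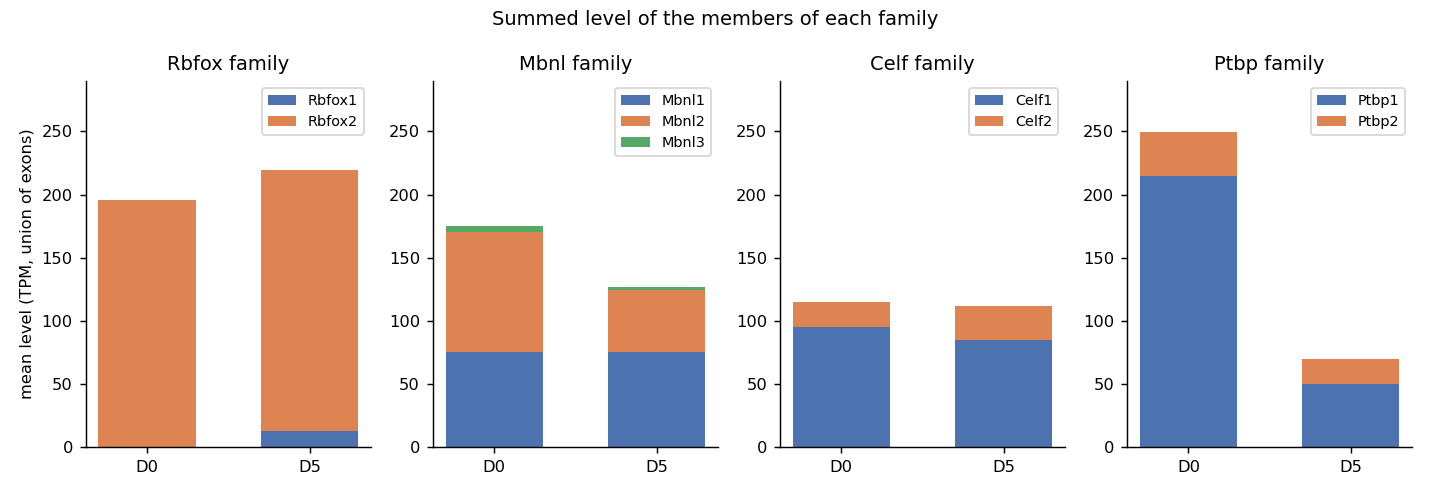
Mean TPM (union of exons, 3 libraries) of the RBFOX, MBNL, CELF and PTB genes at D0 and D5, stacked by gene within each family, on a linear axis from 0 without error bars. The stack of *Ptbp1* and *Ptbp2* stands at 249 at D0 and 69.7 at D5, that of the MBNL genes at 175 and 127, that of *Celf1* and *Celf2* at 115 and 111, and that of *Rbfox1* and *Rbfox2* at 196 and 220.

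Set in order by TPM over the union of exons, the D0 levels ran from *Ptbp1* (215 ± 10.2) and *Rbfox2* (196 ± 6.65) through *Mbnl2* (95.3 ± 3.94), *Celf1* (95.0 ± 2.98), *Mbnl1* (74.9 ± 2.08), *Ptbp2* (34.6 ± 0.554) and *Celf2* (19.8 ± 0.668) to *Rbm24* (5.67 ± 0.424), *Mbnl3* (4.63 ± 0.233) and *Rbfox1* (0.0135) (mean TPM ± SD, n = 3). The neighbours *Mbnl2* and *Celf1* overlapped and cannot be ordered on this length. At D5 the order was *Rbfox2* (207 ± 7.85), *Rbm24* (198 ± 7.91), *Celf1* (85.0 ± 1.11), *Mbnl1* (74.9 ± 1.41), *Ptbp1* (50.2 ± 0.248), *Mbnl2* (49.6 ± 3.18), *Celf2* (26.3 ± 1.30), *Ptbp2* (19.5 ± 1.39), *Rbfox1* (12.7 ± 0.840) and *Mbnl3* (2.44 ± 0.301). The libraries of *Rbfox2* and *Rbm24* overlapped, as did those of *Ptbp1* and *Mbnl2*. On this length *Rbm24* thus moved from near the bottom to the level of *Rbfox2*, and *Ptbp1* from the highest level to that of *Mbnl2*. The order depended on the length at the top, middle and bottom. With the longest transcript as the length, *Mbnl1* passed *Rbfox2* for the second place at D0 (195 against 182 TPM) and stood beside it at D5 (198 ± 3.17 against 195 ± 6.89), and *Mbnl3* passed *Rbm24* at D0 (6.86 against 5.06). *Mbnl2* was above *Celf1* on that length at D0 (162 ± 6.73 against 80.5 ± 2.47 TPM). At D5 on that length *Rbm24* was at 179 ± 7.31 TPM, and *Ptbp1* at 60.0 ± 0.301 stood apart from *Mbnl2* at 85.5 ± 5.24. *Celf1* was then at 73.1 ± 0.755, below *Mbnl2*, and *Celf2* at 61.5 ± 2.88 stood beside *Ptbp1*.

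The balance of paralogs within a library does not depend on how libraries are scaled against each other, and it was compared for 5 pairs as the log2 ratio of their counts. The ratio of *Ptbp2* to *Ptbp1* was -1.62, -1.68 and -1.74 in the D0 replicates and -0.30, -0.50 and -0.44 in the D5 replicates, a change of 1.27, or 2.41-fold towards *Ptbp2*. For *Mbnl2* to *Mbnl1* it was -0.31, -0.30 and -0.27 at D0 and -1.17, -1.30 and -1.25 at D5, a change of -0.94. These changes ran towards *Ptbp2* and towards *Mbnl1*, and the groups did not overlap in either pair.

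For *Mbnl3* to *Mbnl1* the ratio was -5.14, -5.02 and -5.19 at D0 and -5.94, -6.24 and -5.95 at D5, a change of -0.93 that was close to that of *Mbnl2*. The ratio of *Celf2* to *Celf1* was -0.64, -0.67 and -0.63 at D0 and -0.02, -0.13 and -0.08 at D5, a change of 0.57, so that the counts of the pair were nearly equal at D5. *Rbfox1* to *Rbfox2* moved from between -15.21 and -13.48 to between -4.98 and -4.86, where the D0 values rest on the 0.5 counts added to each gene. All 5 pairs were without overlap between D0 and D5. Each had a two-sided p of 0.1 in an exact permutation test (0.1 after Benjamini-Hochberg adjustment over the 5). That is the smallest p that 3 libraries against 3 can give. For *Rbfox1* to *Rbfox2* this is a description only, since *Rbfox1* was tested only because of its D5 counts. The MBNL ratios share *Mbnl1*. Of single genes, 42.2% lay entirely higher at D5 and 41.1% entirely lower. No 50-base stretch was shared between the transcripts of any of these paralogs.

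**Figure D3:**
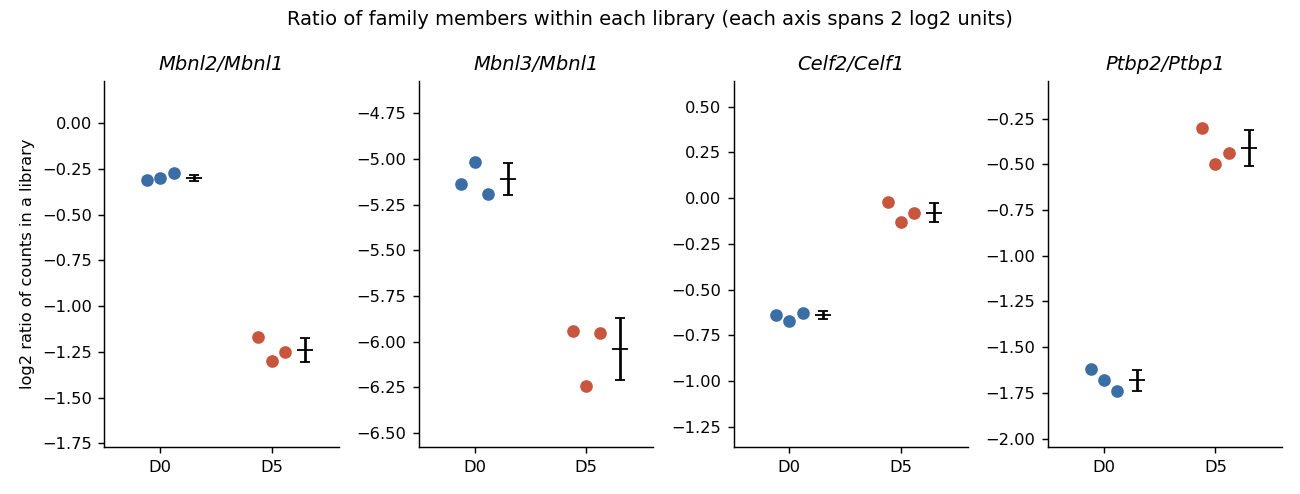
Log2 ratio of the counts of 2 paralogs within each library, for the 4 pairs other than *Rbfox1* and *Rbfox2*, with D0 (blue) and D5 (red) libraries as points and the mean ± SD in black, each panel spanning the same number of log2 units. *Ptbp2* against *Ptbp1* rose from -1.68 to -0.41 and *Mbnl2* against *Mbnl1* fell from -0.30 to -1.24, values that no scaling between libraries can move.

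The rises and falls above compare shares of the RNA, and the scaling between libraries decided the call for the small ones. With the spike-ins as the common scale the median log2 fold change of all genes was -0.58, and without scaling it was -0.68. Of the 10 regulators, 2 were then called higher and 3 lower with spike-in scaling, against 11.1% and 23.0% of all genes. Without scaling 2 were called higher and 7 lower, near the background of 20.6% and 67.2% of all genes. *Rbfox1* and *Rbm24* were the 2 called higher in both. The spike-in share ranged from 0.720% to 2.09% among the D5 libraries alone, and *Ptbp2* at -1.24 was no longer called (adjusted p = 0.051 in edgeR's test). Relative to the median gene of the same scale, *Rbfox2* was at 0.24 with TMM and with spike-ins, *Mbnl1* at 0.16 and 0.17, *Celf2* at 0.56 and 0.57, *Mbnl2* at -0.79 and -0.78, *Ptbp1* at -1.94 and -1.92, *Ptbp2* at -0.67 and -0.66, and *Rbm24* at 5.28 and 5.29. A change of scaling moves all genes by nearly the same amount, so these paired values are near-equal by construction. They give no separate support for the small rises. In bulk RNA, fewer cells of a kind and less RNA per cell cannot be told apart.

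**Figure D4:**
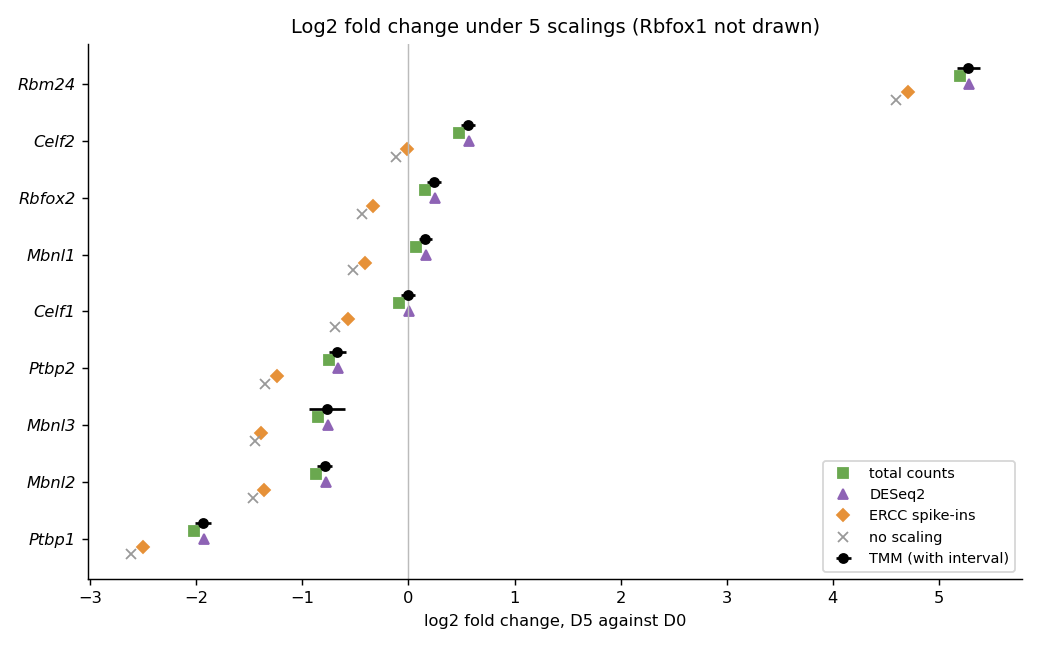
Log2 fold change, D5 against D0, of the regulators other than *Rbfox1* under TMM (with its 95% interval as a bar), DESeq2, total-count, spike-in and no scaling. The points of a gene shift together with the median gene, to -0.58 with spike-ins and -0.68 without scaling, which takes *Rbfox2*, *Mbnl1* and *Celf2* below 0 and leaves *Rbm24* above and *Ptbp1* below it.

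Around these regulators, most of the general splicing machinery was lower at D5. Of the 23 hnRNP genes, which encode abundant nuclear RNA-binding proteins, 22 fell and 1 rose, with a median log2 fold change of -0.78 where the median of all genes was 0.00. Of the 34 core spliceosome genes 32 fell and 2 rose (median -0.53). Among 21 tested of 24 SR proteins, SR-related factors and their kinases, 15 fell and 4 rose (median -0.80). Among 18 tested of 27 other regulated splicing factors, 15 fell and 1 rose (median -0.39). In comparison, 40.8% of all genes were lower and 42.2% higher. With spike-in scaling 15 hnRNP genes, 12 core spliceosome genes, 12 SR genes and 5 of the other regulated factors were lower, where 23.0% of all genes were, so that the last of these lists was near the background.

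In the hnRNP list, *Hnrnpa1*, a splicing repressor, fell from 777 ± 28.4 to 225 ± 1.92 CPM (SD, n = 3; log2 fold change -1.79, adjusted p = 1.3e-28 in edgeR's test), followed by *Hnrnpab* (-1.56) and *Hnrnph1* (-1.25). The largest falls among SR genes were those of *Srsf7* (-1.25), *Srsf10* (-1.16) and *Srsf2* (-1.14). *Khdrbs3*, which encodes the STAR protein SLM2, fell from 41.6 ± 0.222 to 9.43 ± 0.412 CPM (log2 fold change -2.14, adjusted p = 8.0e-25 in edgeR's test), and *Khdrbs1* of the same list fell as well (-1.26). In the core spliceosome, *Snrpd1*, a component of the Sm ring, had the largest fall (-1.44), ahead of *Snrpa1* (-1.40) and *Sf3b4* (-1.18). *Ptbp1* at -1.94 thus had a larger fitted fall than every tested gene of these 4 lists except *Khdrbs3*.

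The exceptions were few, and up to 3 of the largest rises in each list are given, so not every gene that rose is named. *Srpk3*, a muscle-specific kinase of SR proteins that is known as a MEF2 target, rose from 1.26 ± 0.136 to 26.8 ± 1.55 CPM (SD, n = 3; log2 fold change 4.41, adjusted p = 2.7e-27 in edgeR's test). *Rbm47* rose from 0.937 to 4.50 CPM (2.25). Both were called higher under TMM, DESeq2, upper-quartile, total-count, spike-in and no scaling. *Clk1* (0.47), *Srpk2* (0.20), *Hnrnph2* (0.10), *Prpf6* (0.55) and *Plrg1* (0.12) were called higher with TMM scaling and had log2 fold changes from -0.47 to -0.0039 with spike-ins.

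**Figure D5:**
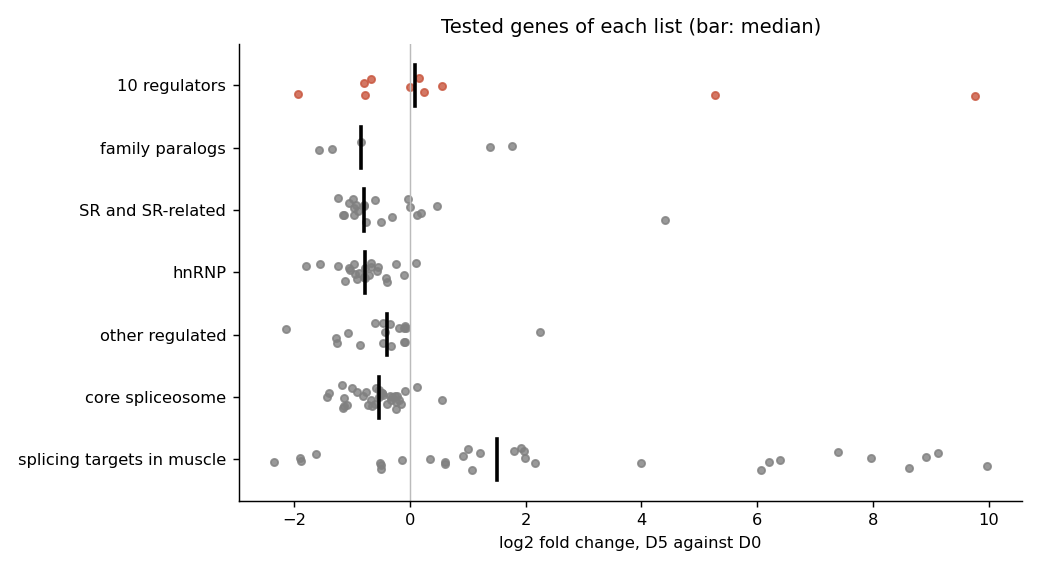
Log2 fold change, D5 against D0, of each tested gene of the splicing regulators, their paralogs, the splicing machinery lists and the muscle splicing targets, with each gene as a point, spread at random up and down, and the median of each list as a bar. The hnRNP, SR and core spliceosome lists lie mostly below 0 with medians of -0.78, -0.80 and -0.53, and the targets above it with a median of 1.51.

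Genes known as splicing targets in muscle went mostly the other way at the level of whole-gene RNA. Whether the 10 regulators act on each of them was not tested. Of 30 such genes, 22 rose and 8 fell, with a median log2 fold change of 1.51, where 42.2% and 40.8% of all genes did. At least 2-fold, 18 rose and 4 fell, against 19.3% and 16.0% of all genes. With spike-in scaling 14 rose and 4 fell, against 11.1% and 23.0% of all genes. The largest rises were those of *Cacna1s*, the voltage sensor of the T-tubule, from 0.343 to 346 CPM (log2 fold change 9.97), *Atp2a1*, the calcium pump SERCA1, from 2.84 to 1590 CPM (9.13), and *Neb*, the thin-filament protein nebulin, from 9.69 to 4690 CPM (8.92). The largest falls were those of *Fhl1* (952 to 188 CPM, -2.34), *Actn1*, the non-muscle alpha-actinin (970 to 260 CPM, -1.90), and *Pdlim7* (346 to 93.9 CPM, -1.88). Summed over the list, the level was between 15900 and 16400 CPM at D0 and between 49600 and 51100 CPM at D5. Several of these genes encode contractile or T-tubule proteins and moved with the differentiation markers, and which isoforms they produced was not measured by gene counts.

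Among the genes with the pattern nearest to that of *Rbfox1* over the 6 libraries, by Euclidean distance between centred log2 CPM values, were *Srrm4os* (distance 0.0558) and *Afap1l1* (0.165). *Srrm4os* received 2, 1 and 2 counts at D0 and 488, 470 and 440 at D5. The nearest to *Ptbp1* were *Ddx11*, a DNA helicase gene (distance 0.0586, log2 fold change -2.03), *Efnb2*, which encodes ephrin-B2 (0.0653, -1.95), and *Pdlim7* (0.0879, -1.88). These distances describe 6 libraries in 2 groups. For *Ptbp1*, at -1.94, they largely restate the size of the D5 against D0 difference. For *Rbfox1* they do so on the scale used, where a constant larger than these genes' D0 levels was added to each CPM. The constant masks differences at D0, so the fitted log2 fold changes still differed, at 9.77 for *Rbfox1*, 8.68 for *Srrm4os* and 7.46 for *Afap1l1*. Their mean levels were 18.0, 18.7 and 24.1 CPM at D5 and at most 0.134 CPM at D0. *Rbfox1* was tested only because of its D5 counts, so its neighbours are given as a description.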

How the data were processed

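RNA-seq was performed on 3 D0 and 3 D5 libraries of C2C12 cells. Reads were aligned to GRCm38 and assigned to genes with featureCounts, and the authors deposited raw read counts per gene, without normalization. The methods name HISAT2 and FastQC, whereas the labels name Tophat2 and NGS-QC-Toolkit. The submitters' processing notes also name DESeq2 1.6.3. Annotation release, strand setting and the handling of multi-mapping reads are not given in the sources used here. Reads of overlapping genes on opposite strands may therefore be shared or left uncounted. No source states how the replicate cultures were kept apart, so p-values measure the spread between these samples.

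From the deposited counts, 92 ERCC rows and 1 row without a gene name, which equalled the column total, entered neither library sizes nor tests. TMM factors, CPM and the quasi-likelihood test (filterByExpr, then Benjamini-Hochberg adjustment over 16290 genes, threshold 0.05) came from edgeR 4.0.16 in R 4.3.3. Standard errors were obtained by dividing each log2 fold change by the root of its F statistic. The detection limit was 3 counts per library, which covers counting error only. TPM used the union of exons in GENCODE vM21, to which 99.9% of gene IDs matched, and was not scaled by TMM. Within-library ratios used 0.5 added counts and an exact permutation test. Chi-square values per degree of freedom between replicates ran from 2.28 to 3.71, above sampling noise, and every library was counted as 1 sample. Promoter windows are from RefSeq.

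The regulators and the other lists were chosen with earlier results of these data known. Named are all 10 regulators, their paralogs, the markers, up to 3 genes with the largest rise and up to 3 with the largest fall in each other list (called, at least 100 mean counts in a group, no overlap), and the 3 genes nearest in pattern to the regulators with the largest rise and fall. Some genes that this rule names are not reported here. The scripts were tested on simulated data. Alternatives were DESeq2 1.42.0, upper-quartile, total-count, spike-in and no scaling, other filters, leaving out each library, a replicate block, other lengths and added counts.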

Additional observations from a re-analysis of the deposited data

How the results depend on the processing

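*Rbm24*, *Ptbp1*, *Mbnl2*, *Mbnl3* and *Ptbp2* kept their direction in every fit. *Rbfox1* was higher in every fit that could test it, which is a description only, since it was tested only because of its D5 counts. *Rbfox1* was not tested with at least 10 counts required in every library, which left 4 regulators higher, where 41.9% of all genes were. Without scaling, 2 regulators were higher and 7 lower, against 20.6% and 67.2% of all genes. With spike-in scaling 2 were higher, against 11.1% of all genes. Genes called were 6869 higher and 6641 lower with TMM, 3353 and 10953 without scaling, and 1813 and 3747 (5560 in all) with spike-ins. The log2 fold changes that were below 0 without scaling and with spike-ins, in the latter case not called, were those of *Rbfox2* (-0.44 and -0.33), *Mbnl1* (-0.52 and -0.41) and *Celf2* (-0.12 and -0.011). *Celf1* was at 0.005 with DESeq2 and between -0.031 and 0.0071 when each library was left out, highest without D5 replicate 1. With total counts *Celf1* was called lower at -0.087, and without scaling at -0.69.

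With spike-in scaling, the number of genes called was 0 higher among the paralogs, 1 higher among SR genes, 0 higher among hnRNP genes, 5 lower among the other regulated factors, 0 higher and 12 lower in the core spliceosome, and 14 higher and 4 lower among the splicing targets. With total counts, 0 hnRNP and 1 core spliceosome gene were higher. With the longest transcript as the length, shares of TPM were again taken over the listed regulators of the same family. At D0 and D5 they were 53.7% and 69.0% for *Mbnl1*, 44.5% and 29.7% for *Mbnl2*, and 1.89% and 1.27% for *Mbnl3*. They were 36.2% and 45.7% for *Celf2* and 19.6% and 37.0% for *Ptbp2*, with *Ptbp3* left out. That of *Rbfox1* at D5 was 6.95%. The ratio of *Rbfox1* to *Rbfox2* changed by 6.76 with 5 counts added in place of 0.5.

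Leaving out each library in turn gave from 13236 to 13599 called genes and the same calls for the 10 regulators, with *Ptbp1* between -1.97 and -1.92 and *Rbm24* between 5.2 and 5.33. The replicate numbers are shared between D0 and D5, but same-numbered libraries deviated together with correlations of 0.0275, 0.104 and 0.0469, so the numbers were not taken as pairs. Each library correlated best with its own number, as a hint from the data. With the replicate number as a block 13558 genes were called, and the 5 higher and 4 lower regulators were unchanged. At 3 counts or fewer a fold could be given only as a bound, as for *Rbfox1*.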

Other observations

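Some transcripts linked to splicing regulation were listed at or near 0. *Raver1*, which encodes a partner protein of PTBP1, was listed at 0 in all 6 libraries, and 99.7% of its exonic length is shared with a gene annotated on the same strand, *Gm38431*, which itself received from 16 to 21 counts at D0 and from 5 to 8 at D5. Whether the 0 of *Raver1* came from the way reads of overlapping genes were counted was not tested. *Srrm4*, a neuronal splicing activator, had from 1 to 7 counts in every library, while the transcript named for its opposite strand, *Srrm4os*, had from 440 to 488 at D5.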
